A study of Mus musculus with 12 samples.

Results

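Dcn, Ogn, Igf2, Igfbp2, Aldh1a2, Slc22a6, Foxc1, Lum and Slc47a1 are 9 mouse genes known as markers of the fibroblasts of the brain's coverings. They were taken by symbol from a table of 19775 genes, and the 9 symbols were all found. Each gene was followed in 3 genotypes of the glycine and proline transporter gene Slc6a20a, and within each genotype it was set beside the level of Slc6a20a itself. RNA from whole brain was measured in 12 male C57BL/6N mice at about postnatal day 120. The 4 wild-type (WT) mice carried no deletion, the 4 HT mice (Slc6a20a+/-) lacked exon 3 of Slc6a20a on 1 allele, and the 4 HM mice (Slc6a20a-/-) lacked it on both alleles. The mutants came from crosses of heterozygous mice.

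The meninges are the membranes between brain and skull, and their fibroblasts lay down a collagen-rich matrix, secrete growth factors and retinoic acid towards the brain, and carry transporters that move organic ions and amino acids across the border to the cerebrospinal fluid. Foxc1 is a transcription factor needed for the meninges to form. Slc6a20a is itself known in mouse brain from the meninges and from the choroid plexus, the tissue that secretes cerebrospinal fluid. How much of the membranes stayed on the dissected brains is not stated, and whole-brain RNA mixes all cell types, so fewer fibroblasts and less RNA per fibroblast cannot be told apart in any value given here.

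The deposited unit is a normalized count, a read count per gene scaled so that the libraries can be compared. The totals of the 12 libraries ran from 33285000 to 33748600 normalized counts, and the read depth before scaling is unknown. The brain's own markers were high, with 79380 to 87847 normalized counts of the neuronal gene Snap25 and 77980 to 98441 of the myelin gene Mbp. Slc6a20a, on chromosome 9 from 123634770 to 123678885 (minus strand, GRCm38), fell with each lost allele, to 50.8% of the WT mean in HT and 9.5% in HM mice (limma adjusted p = 9.4e-04 and 1.8e-08). In a library without strand, reads of the 5 annotated genes that overlap it cannot be fully separated from its own. Its values were 704, 584, 678 and 750.5 normalized counts in WT, 332, 366, 372 and 310.3 in HT and 69.0, 55.6, 76.5 and 57.1 in HM mice, in the order of the replicate numbers, which is kept for all values below.

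The DNA just before the first bases of these genes differs in make-up. The sequences shown are the RefSeq windows (GRCm38.p6) of the members that followed Slc6a20a most closely and have a single listed start, of Foxc1, whose relation to it did not pass the test, and of Slc6a20a for comparison. Each stops before the first annotated transcript base, reads 5′ to 3′ on the gene's strand and lies at chr19:8617746-8617995 (Slc22a6, plus strand), chr13:49607765-49608014 (Ogn, plus), chr9:71215539-71215788 (Aldh1a2, plus), chr13:31806396-31806632 (Foxc1, plus) and chr9:123678886-123679082 (Slc6a20a, minus). Capitals mark the letters of 5 short motifs on either strand, the TATA box TATAAA, the CCAAT box CCAAT, the GC box GGGCGG, the forkhead core GTAAACA and the TEAD core GGAATG.
Slc22a6: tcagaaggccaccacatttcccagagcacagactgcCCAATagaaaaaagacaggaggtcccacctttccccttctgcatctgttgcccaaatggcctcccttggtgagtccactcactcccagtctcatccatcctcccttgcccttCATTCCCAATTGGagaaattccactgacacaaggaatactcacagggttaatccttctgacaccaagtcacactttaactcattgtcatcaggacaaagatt
Ogn: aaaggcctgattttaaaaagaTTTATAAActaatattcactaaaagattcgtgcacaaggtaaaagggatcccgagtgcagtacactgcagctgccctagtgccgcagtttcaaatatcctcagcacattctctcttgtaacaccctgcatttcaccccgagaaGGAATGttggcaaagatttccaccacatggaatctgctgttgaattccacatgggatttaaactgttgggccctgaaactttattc
Aldh1a2: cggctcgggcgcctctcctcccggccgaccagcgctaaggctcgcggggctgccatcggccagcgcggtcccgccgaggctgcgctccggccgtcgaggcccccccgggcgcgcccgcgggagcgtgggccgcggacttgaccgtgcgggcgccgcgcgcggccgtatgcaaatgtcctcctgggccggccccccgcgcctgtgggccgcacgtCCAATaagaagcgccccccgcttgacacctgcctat
Foxc1: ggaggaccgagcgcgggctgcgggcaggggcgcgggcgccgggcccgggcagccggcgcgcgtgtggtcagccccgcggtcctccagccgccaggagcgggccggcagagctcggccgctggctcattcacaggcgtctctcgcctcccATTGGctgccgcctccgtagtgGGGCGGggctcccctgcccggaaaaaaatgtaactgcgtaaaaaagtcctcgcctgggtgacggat
Slc6a20a: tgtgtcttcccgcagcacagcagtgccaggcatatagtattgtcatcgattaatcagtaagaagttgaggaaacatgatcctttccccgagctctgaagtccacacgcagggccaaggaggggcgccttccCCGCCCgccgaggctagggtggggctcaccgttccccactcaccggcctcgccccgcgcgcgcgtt
The Slc22a6 window held 3 CCAAT boxes and 1 TEAD core, of which the TEAD core and a pair of the CCAAT boxes overlap in a single run of capitals. In the Ogn window there was a TATA box read on both strands, whose letters overlap, and a TEAD core. The windows of Aldh1a2 and Foxc1 were rich in G and C (77.6% and 72.6%) and each held 1 CCAAT box, with 1 GC box in Foxc1, and the Slc6a20a window had a GC content of 61.4% and 1 GC box. Among 32851 RefSeq windows cut to 250 bases, 12.4% held the TATA box, 33.8% the CCAAT box, 32.7% the GC box and 12.6% the TEAD core, with a median GC content of 52.4%. For windows of 237 bases the shares were 32.8% for the CCAAT box and 30.9% for the GC box, and for windows of 197 bases the GC box share was 24.1%. No window is shown for Dcn, Lum and Slc47a1. The forkhead core, in 3.17% of windows of 250 bases, was in none of the 5, and no motif was common to all of them.

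Per kilobase of transcript, the insulin-like growth factor genes were the most abundant of the 9 in WT brain and Foxc1 was the least. The level per kilobase was 790.3 ± 118 for Igfbp2, 544 ± 81.2 for Igf2, 348 ± 56.0 for Dcn, 108 ± 18.7 for Ogn and 102 ± 25.6 for Aldh1a2 (normalized counts per kilobase of the longest coding transcript, mean ± SD, n = 4 WT mice). The lower members had 54.8 ± 9.13 for Slc22a6, 40.7 ± 5.90 for Slc47a1, 35.0 ± 3.51 for Lum and 23.9 ± 5.01 for Foxc1. The order of neighbours held in 12 of 12 mice except between Ogn and Aldh1a2 (9 of 12), Slc47a1 and Lum (11 of 12) and Lum and Foxc1 (9 of 12). In WT mice, the ranges of Igfbp2 and Igf2, of Ogn and Aldh1a2, of Slc22a6 and Slc47a1 and of Slc47a1 and Lum overlapped.

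Dcn, Ogn and Lum are small leucine-rich proteoglycans, which bind collagen and space its fibrils. Of these members, Lum stood lowest relative to WT in both mutants. Omd, of the same family but outside the 9, had a log2 fold change of -0.34 (SE 0.25) in HT and -0.44 (SE 0.26) in HM mice (limma adjusted p = 0.864 and 0.766). Lum (lumican, ENSMUSG00000036446, chromosome 10 from 97565128 to 97572703, plus strand) had 76.7, 81.2, 88.6 and 96.3 normalized counts in WT, 72.8, 66.1, 69.3 and 64.4 in HT and 71.3, 61.7, 86.1 and 55.1 in HM mice. Every HT mouse lay below every WT mouse, while HM replicate 3 lay inside the WT range. Relative to WT the mean was 79.6% in HT and 80.0% in HM mice. For Lum in HT mice, limma gave a log2 fold change of -0.32 (SE 0.13, 95% confidence interval -0.61 to -0.03), an unadjusted p of 0.0321 and a Benjamini-Hochberg (BH) adjusted p of 0.770, so the difference did not pass over all genes. Lum was the 1 member of 9 whose HT and WT values did not overlap with HT lower, where 1.91% of the 18004 genes tested did the same (exact permutation p = 0.0286, two-sided, the smallest that 4 mice against 4 allow). In HM mice the log2 fold change of Lum was -0.33 (SE 0.16, interval -0.68 to 0.02, limma adjusted p = 0.727).

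Dcn (decorin, ENSMUSG00000019929, chromosome 10 from 97479609 to 97518143, plus strand) had 611, 506, 586 and 743 normalized counts in WT, 589.9, 565, 639 and 506 in HT and 544, 492, 603 and 528 in HM mice. The 3 ranges overlapped, and the means were 612 ± 98.4 (WT), 575 ± 55.4 (HT) and 542 ± 46.4 (HM) normalized counts (SD, n = 4). Ogn (osteoglycin, ENSMUSG00000021390, chromosome 13 from 49608046 to 49624501, plus strand) had 278, 218, 279 and 335 normalized counts in WT, 255, 251, 250.4 and 251 in HT and 298, 209, 302 and 202 in HM mice. The HT mice were nearly identical, whereas HM replicates 1 and 3 lay above all of them and HM replicates 2 and 4 below. Ogn overlaps Cenpp on the opposite strand, and a library kit that does not mark the strand cannot separate reads of the shared bases.

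Neither gene of the insulin-like growth factor (IGF) axis was separated by genotype. Igf2 (ENSMUSG00000048583, chromosome 7 from 142650766 to 142666816, minus strand), a growth factor that meninges and choroid plexus go on making in the adult brain, had 2479, 2147, 2577 and 3074 normalized counts in WT, 2363, 2648, 2678 and 1979 in HT and 2307, 2053, 2740.1 and 2139 in HM mice. Igfbp2 (ENSMUSG00000039323, chromosome 1 from 72824503 to 72852474, plus strand), a secreted protein that binds the growth factors, had 1141, 831, 993 and 1166 in WT, 982, 1003, 1014 and 908 in HT and 1028, 803, 1100.3 and 972 in HM mice. For both genes WT replicate 4 was the highest WT mouse and WT replicate 2 the lowest. The HT and HM values of Igf2 overlapped the WT range, with HT replicate 4 and HM replicates 2 and 4 below it, and those of Igfbp2 all lay inside the WT range except HM replicate 2. Igf2 overlaps an antisense transcript, Igf2os, whose reads cannot be told apart from its own by strand.

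Aldh1a2 (ENSMUSG00000013584, chromosome 9 from 71215789 to 71296243, plus strand), the enzyme that makes retinoic acid in the meninges, varied most between WT mice. It had 258, 158, 212 and 291 normalized counts in WT, 222, 213, 209 and 183 in HT and 228, 201, 268 and 169.8 in HM mice. The WT mice spanned all HT and all HM values, and the coefficient of variation (CV, SD divided by mean) in WT mice was 25.2%, the highest of the 9.

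The transporters were likewise interleaved. Slc22a6 (ENSMUSG00000024650, chromosome 19 from 8618039 to 8628299, plus strand), an exchanger that takes up organic anions, had 238, 171, 209.9 and 254 normalized counts in WT, 199, 228, 248 and 218 in HT and 216, 179, 239 and 160.2 in HM mice. Slc47a1 (ENSMUSG00000010122, chromosome 11 from 61343401 to 61378345, minus strand), which exports organic cations in exchange for protons, had 110.2, 84.6, 118 and 117 in WT, 126, 108, 126 and 137 in HT and 136, 91.4, 113 and 93.7 in HM mice. The mean of Slc47a1 was highest in HT mice, at 115.5% of WT, but the lowest HT mouse lay below 3 of the WT mice.

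The transcription factor Foxc1 (ENSMUSG00000050295, chromosome 13 from 31806633 to 31812476, plus strand) had 147, 96.7, 164 and 149.7 normalized counts in WT, 143, 146, 162 and 169.7 in HT and 155, 151, 161 and 171 in HM mice. WT replicate 2 was far below the other 11 mice, which all lay between 143 and 171. The HM mean was 114.3% of WT, and the log2 fold change of HM against WT was 0.22 (SE 0.15, limma adjusted p = 0.801). It was 0.05 without WT replicate 2, 0.18 to 0.30 with any other mouse left out and 0.47 with a block for the animal number (limma unadjusted p = 0.0282, adjusted p = 0.604). What is called the animal number here is the number in each column heading, and the labels do not say what it stands for.

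**Figure D1:**
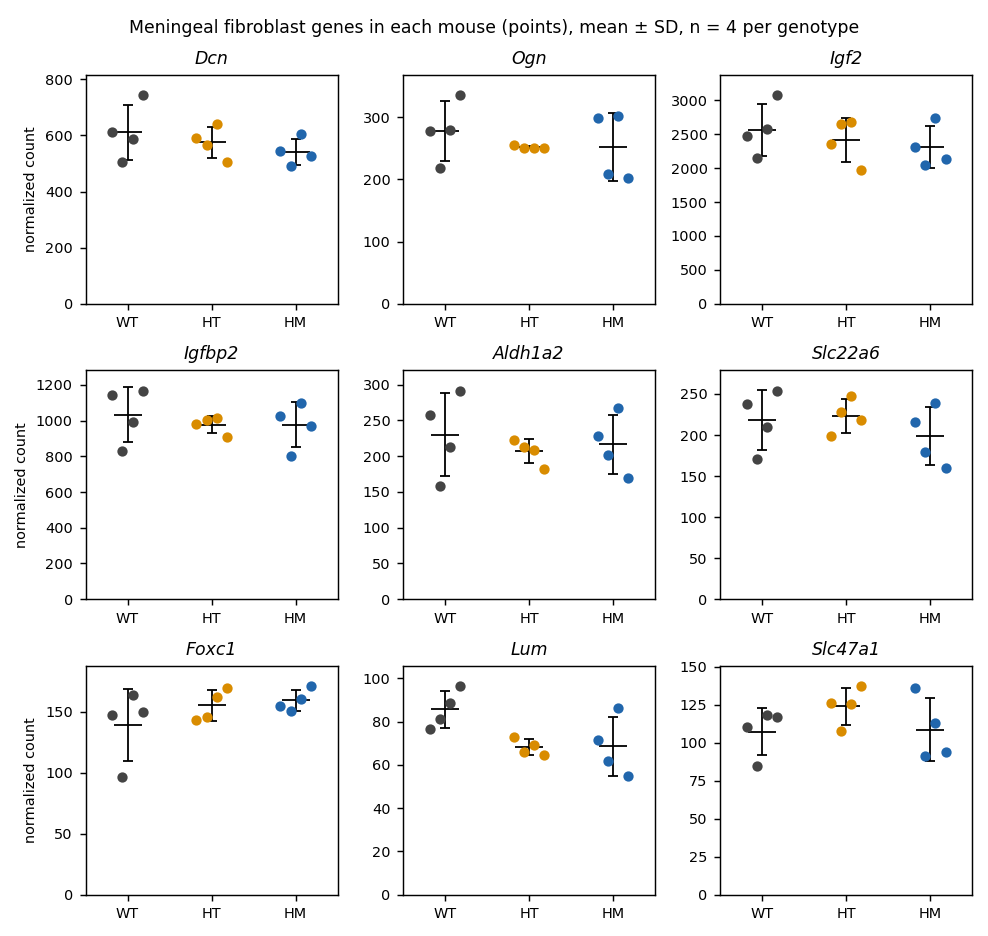
Normalized counts of the 9 genes (1 panel each, vertical axis from 0) in each WT, HT and HM mouse, with the points of a genotype in the order of the replicate numbers and a bar for mean ± SD, n = 4. The genotypes overlap in every panel except for Lum, where the 4 HT mice (64.4 to 72.8) lie below the 4 WT mice (76.7 to 96.3), and the HT points are the closest together in most panels.

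Across the 9 genes, none passed the adjusted threshold in any pair of genotypes (limma, BH), where the share of all genes that did was 0.00555% between HT and WT mice, 0.0111% between HM and WT and 0.00556% between the mutants. At an unadjusted p under 0.05 the counts were 1 of 9 (Lum), 0 of 9 and 0 of 9, beside 6.42%, 6.99% and 3.74% of all genes. Without WT replicate 2, Ogn, Igfbp2, Aldh1a2 and Lum were lower in HT and Dcn and Igf2 lower in HM than in WT mice at that level (limma). There 1248 of 17985 and 1456 of 17974 genes passed in either direction. Without WT replicate 4, Lum in HT mice did not pass it (limma unadjusted p = 0.0942). In HT mice 6 members were lower and 3 higher than in WT, with a median log2 fold change of -0.08, where 50% of all genes were lower. In HM mice 7 were lower than in WT and 2 higher, with a median of -0.14 (50.2% of all genes lower), and 7 were lower in HM than in HT mice and 2 higher, with a median of -0.02 (50.5% of all genes lower). These counts hung on few mice. Blocking on the start of the number taken as the animal number left WT replicates 1 and 2 to set HM replicates 3 and 4 against. That block turned the count in HM mice to 2 lower and 7 higher than in WT, with a median of 0.07. The labels do not say whether such a block marks a litter, a cage or a day. Under the same block 5 members were lower and 4 higher in HT than in WT mice, and 8 lower and 1 higher in HM than in HT mice. Without WT replicate 4, 3 members were lower and 6 higher in HT than in WT mice, and without HM replicate 2, 4 were lower and 5 higher in HM than in HT mice. Without WT replicate 2 the move was the other way. Then 7 were lower and 2 higher in HT than in WT mice (median -0.17), and 8 lower and 1 higher in HM than in WT mice (median -0.24). The medians over all genes tested were 8.6e-05, -2.9e-04 and -8.6e-04. Apart from Lum in HT mice, no member had values that did not overlap in a pair of genotypes. The shares of all genes without overlap were 1.82% higher in HT than in WT, 1.81% lower and 2.41% higher in HM than in WT, and 1.14% lower and 1.24% higher in HM than in HT mice. The comparisons with WT share the same 4 WT mice, so their directions are not independent.

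The intervals show how large a difference 4 mice per genotype could have missed. The half-width of the 95% confidence interval of a member's log2 fold change was 0.20 to 0.34 between HT and WT mice, 0.22 to 0.39 between HM and WT and 0.18 to 0.34 between the mutants. The narrowest of the comparisons with WT was Igfbp2 in HT mice, at -0.07 (interval -0.27 to 0.13), and the widest was Aldh1a2 in HM mice, at -0.07 (-0.46 to 0.32). The lower bounds for Dcn in HM mice (-0.39) and Igf2 in HM mice (-0.37) leave room for falls of that size. Their log2 fold changes, -0.16 and -0.15, became -0.25 and -0.23 without WT replicate 2 and -0.07 and -0.06 without WT replicate 4.

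**Figure D2:**
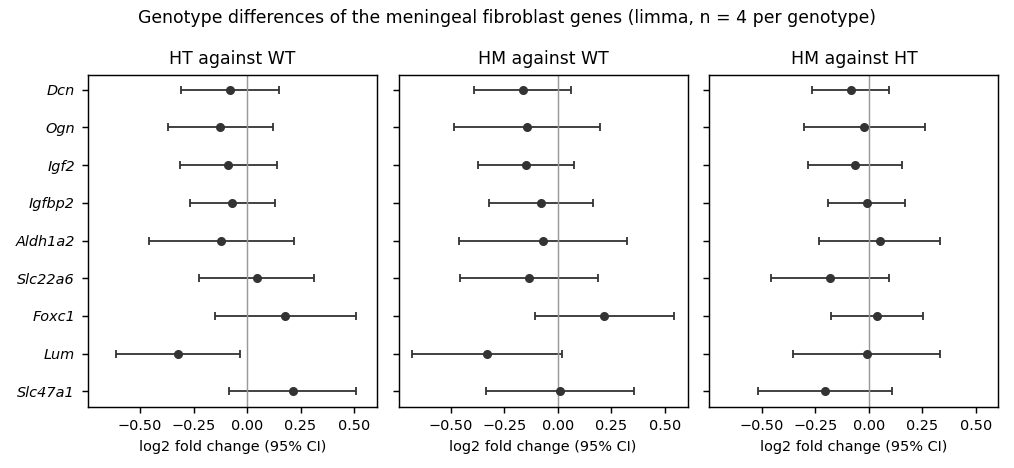
Log2 fold change (horizontal axis, log2(normalized count + 1) scale) of each of the 9 genes in the 3 pairs of genotypes, as points with 95% confidence intervals from limma, n = 4 mice per genotype. All intervals include 0 except that of Lum in HT against WT, which runs from -0.61 to -0.03.

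The members were high or low together in the same mice of a genotype. To compare mice across genotypes, each log2 value was taken as its difference from the genotype mean. In WT mice the mean difference over the 9 genes ran from -0.32 in replicate 2 to 0.23 in replicate 4, and replicate 2 was the lowest WT mouse for 8 members and replicate 4 the highest for 7. In HM mice it ran from -0.16 in replicate 2 to 0.21 in replicate 3, which was the highest HM mouse for 7 members. HT mice lay closer, from -0.06 in replicate 4 to 0.07 in replicate 3. The median CV of the members was 16.1% among WT, 8.18% among HT and 17.9% among HM mice.

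**Figure D3:**
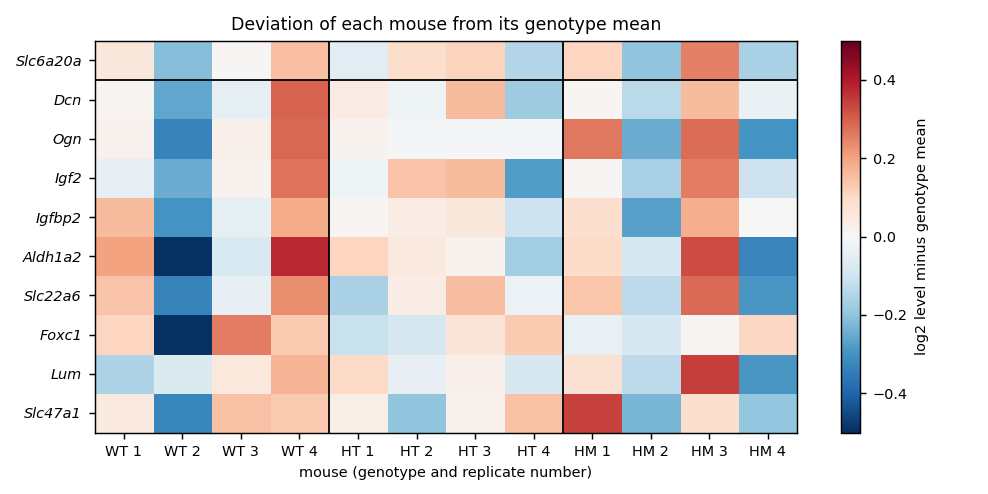
Difference of each mouse from its genotype mean (colour, log2 units, red higher and blue lower) for Slc6a20a in the top row and the 9 genes below it, with the 12 mice in columns. WT replicate 2 and HM replicates 2 and 4 are blue in most rows and WT replicate 4 and HM replicate 3 are red, in the row of Slc6a20a as well.

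Over the 36 pairs of members, Pearson's r of these differences was positive in 36 of 36 pairs and at least 0.7 in 17, with a median of 0.68. It ran from 0.06 for Foxc1 and Lum to 0.91 for Dcn and Igf2. The 12 points of each pair are the same mice and libraries, so the pairs are not independent and these values are a description.

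Mice with more Slc6a20a RNA than others of their genotype had more RNA of most of these genes. In all 3 genotypes, the highest and the lowest mouse for Slc6a20a were also the highest and the lowest for Dcn, Igf2 and Igfbp2. In WT mice those were replicates 4 and 2, in HT mice replicates 3 and 4, and in HM mice replicates 3 and 2. Slc22a6 shared the highest mouse in 3 of 3 genotypes, Ogn, Aldh1a2 and Lum in 2 of 3, and Foxc1 and Slc47a1 in none. Since a correlation over the 4 mice of a genotype would rest on very few points, the relation was computed over 12 mice with the genotype means removed.

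Igf2 and Slc22a6 followed Slc6a20a most closely. For Igf2, r was 0.91 (Spearman's rho 0.90) and 11 of 12 mice were on the same side of their genotype mean for both genes. The exact permutation p was 3.6e-04 for r and 6.5e-04 for rho, two-sided, over the 13824 orders of the mice within genotypes. Igf2 changed by 1.08 log2 units per log2 unit of Slc6a20a (SE 0.16), with a BH-adjusted p of 0.0433 over 18005 genes by limma. It was the 1 member of 9 that passed, beside 0.0222% of all genes, and it no longer passed when any single mouse of the 12 was left out (adjusted p 0.0564 to 0.311), although its slope stayed between 0.98 and 1.15. Slc22a6 also had r = 0.91 (exact permutation p = 0.00159, rho 0.93, p = 5.8e-04), with a slope of 1.19 (SE 0.25) and an adjusted p of 0.261 (limma). Among 18005 genes ranked by r, Slc22a6 was the 7th and Igf2 the 8th.

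The other secreted and matrix genes lay close behind. Igfbp2 had r = 0.87 (exact permutation p = 7.2e-05, the smallest these orders can give, rho 0.91, p = 4.3e-04) and a slope of 0.91 (SE 0.18, limma adjusted p = 0.187). Ogn had r = 0.87 (exact permutation p = 0.0131, rho 0.79, p = 0.0259) and a slope of 1.20 (SE 0.26, limma adjusted p = 0.261), although its HT values all lay between 250.4 and 254.9. For Dcn, r was 0.82 (exact permutation p = 0.00101, rho 0.86, p = 0.00174) and the slope 0.83 (SE 0.20, limma adjusted p = 0.411). Aldh1a2 had the steepest slope of the 9, 1.41 (SE 0.31, limma adjusted p = 0.261), with r = 0.85 (exact permutation p = 0.00166, rho 0.82, p = 0.00977). Lum followed less closely, with r = 0.74 (exact permutation p = 0.0414, rho 0.69, p = 0.0635) and an adjusted p of 0.800 (limma).

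Foxc1 and Slc47a1 were the members whose relation did not pass even before adjustment. Foxc1 had r = 0.37 (exact permutation p = 0.272, rho 0.25, p = 0.433), and Slc47a1 had r = 0.57 (exact permutation p = 0.128, rho 0.49, p = 0.171). WT replicate 2 and HM replicate 2 were the mice farthest from the median of Slc6a20a. Without them r of Foxc1 became -0.46 and that of Slc47a1 0.19, while r of the other 7 members stayed between 0.72 (Dcn) and 0.90 (Slc22a6). The slopes of the 3 genotypes were not distinguished for any member, with unadjusted p from 0.0616 (Foxc1) to 0.531 (Slc22a6) in limma's F test and 3.59% of all genes with a p under 0.05.

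**Figure D4:**
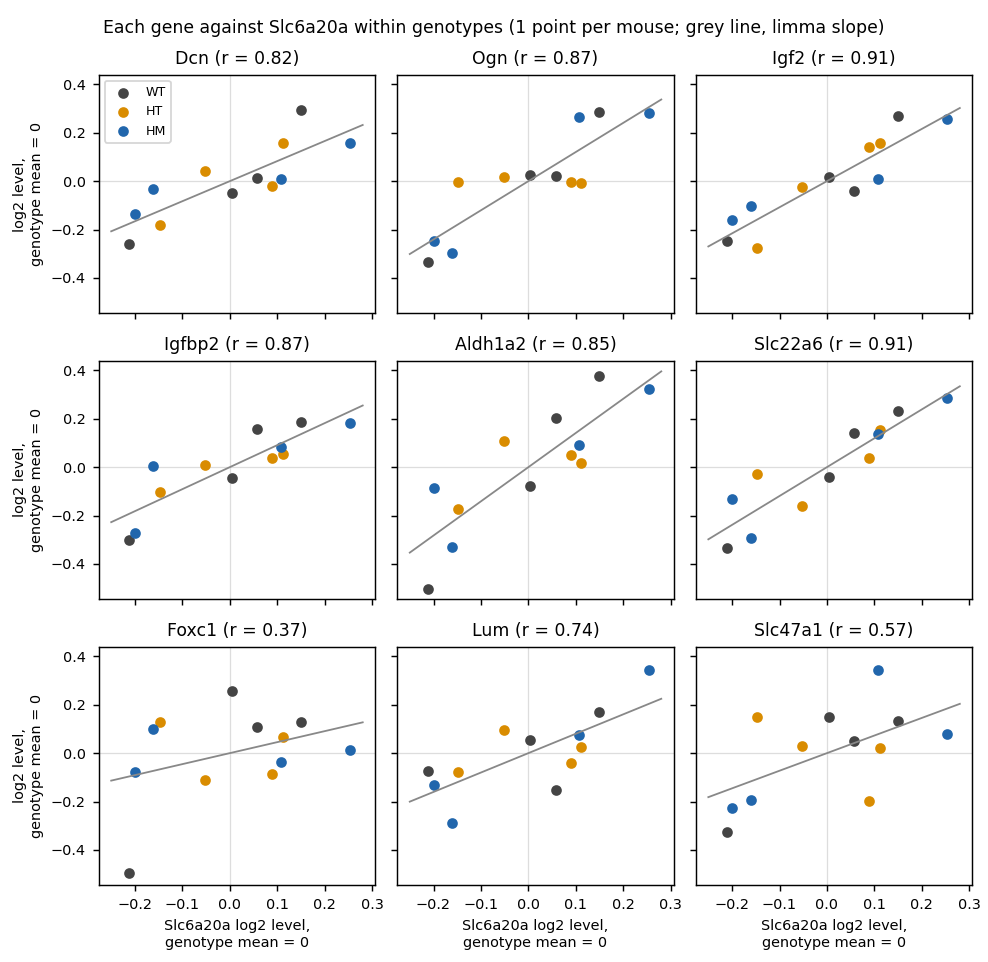
Each of the 9 genes (vertical axis) against Slc6a20a (horizontal axis), both as log2 level minus the genotype mean, with 1 point per mouse coloured by genotype and a grey line for the slope from limma. The points rise together for Igf2 and Slc22a6 (r = 0.91 each), scatter for Slc47a1 (0.57) and depend on WT replicate 2, at the lower left, for Foxc1 (0.37).

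As a group, 7 of the 9 genes had r of at least 0.7 with Slc6a20a, where 1.81% of all 18005 genes did, and 7 of 9 had an unadjusted p under 0.05 with a positive slope, where 3.25% of all genes did (limma). All 9 slopes were positive, where 49.6% of all genes had a positive slope. The median r of the 9 was 0.85, and the median over all genes was -0.0035. The 6 members Slc22a6, Igf2, Ogn, Igfbp2, Aldh1a2 and Dcn were among the first 100 genes. The mean of the 9 genes had r = 0.92 with Slc6a20a.

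The same mice were also high or low for genes of neighbouring tissues. Of 18 choroid plexus markers, all measured, 11 (61.1%) had r of at least 0.7 with Slc6a20a, among them Ttr (transthyretin, r = 0.87, slope 1.64, SE 0.25, limma adjusted p = 0.0433) and Sostdc1 (an inhibitor of BMP signals, r = 0.95). Their summed level was 17215 to 22074 normalized counts in WT, 14302 to 22492 in HT and 11353 to 20236 in HM mice. The mean of these markers had r = 0.84 with Slc6a20a and r = 0.69 with the mean of the 9 genes. With the choroid plexus mean held constant, r with Slc6a20a was 0.90 for Igf2, 0.85 for Dcn, 0.84 for Igfbp2, 0.83 for Aldh1a2, 0.72 for Slc22a6, 0.65 for Ogn, 0.60 for Foxc1, 0.39 for Lum and 0.29 for Slc47a1, so that it was higher than without the adjustment for Foxc1 and Dcn and lower for the other 7. With that mean in the model, no gene passed the adjusted threshold (limma).

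Markers of other cell types were set beside Slc6a20a in the same way. Of 8 ependymal markers 4 reached r of 0.7, of 10 astrocyte markers 2, of 12 endothelial markers 1 and of 12 pericyte and smooth muscle markers 1, and none of 10 microglial, 7 border macrophage, 5 erythrocyte, 10 olfactory bulb and 2 pituitary markers did. Erythrocyte transcripts, summed at 7780 to 21984 normalized counts in WT, 6495 to 8717 in HT and 5859 to 29023 in HM mice, had a median r of -0.14. The olfactory bulb list, summed at 1035 to 1408 in WT, 954 to 1260.2 in HT and 1488 to 2426 in HM mice, had a median r of -0.0049. In HT mice 5 of 5 erythrocyte markers were lower than in WT, and in HM mice 9 of 10 olfactory bulb markers were higher, at an unadjusted p under 0.05 (limma, none past the adjusted threshold; 6.42% and 6.99% of all genes in either direction). Of the 18 choroid plexus markers, 3 were lower and 0 higher in HM than in WT mice at that level, none past the adjusted threshold (limma). The median log2 fold change of those 18 was -0.44 in HM and -0.05 in HT mice. What part these lists had in the genotype values of the 9 genes was not tested.

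**Figure D5:**
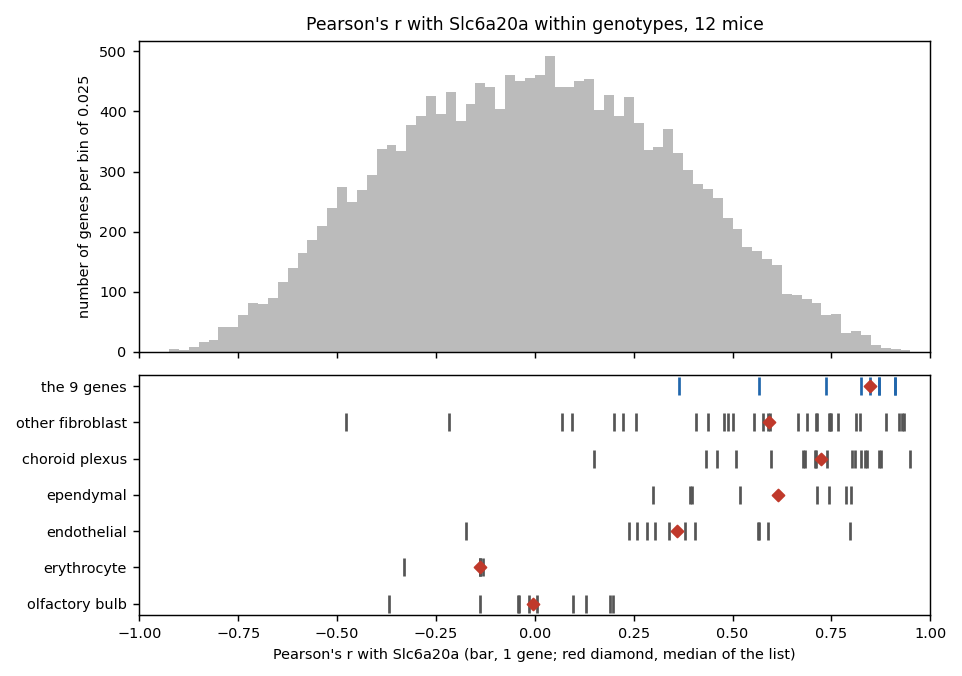
Upper panel, number of genes (vertical axis) by Pearson's r with Slc6a20a within genotypes (horizontal axis) for 18005 genes over 12 mice. Lower panel, the same r for each gene of the 9 and of 6 marker lists, with a red diamond at the median, which is 0.85 for the 9 genes, 0.72 for choroid plexus and -0.14 for erythrocytes.

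The 10 genes whose pattern over 12 mice was most like the mean of the 9, by r, were Slc13a4 (a sulfate transporter, 0.95), Alx4 (a homeobox factor, 0.93), Slc6a20a (0.92), Cavin1 (a coat protein of caveolae, 0.92), Aebp1 (0.91), Slc13a3 (a dicarboxylate transporter, 0.91), Myoc (myocilin, 0.91), Bmp6 (0.90), C1qc (a complement subunit, 0.90) and Tal2 (0.90). By r with Slc6a20a they were Sostdc1 (0.95), Col1a2 (0.93), Slc13a4 (0.93), Lbp (0.92), Bmp6 (0.92), Penk (0.92), Slc22a6 (0.91), Igf2 (0.91), Clec3b (0.90) and Mr1 (0.89). Slc13a4 and Bmp6 were on both lists of 10. In all, 4 genes passed the adjusted threshold for the relation, each with a positive slope, namely Igf2, Ttr, Slc13a4 (slope 1.35, SE 0.21) and Enpp2 (1.25, SE 0.19, the enzyme that makes lysophosphatidic acid, named after its values were seen). With a replicate or animal-number block, or without a trend in the variance prior, 0 genes passed.

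The wider families of the members were followed through fixed lists, and no gene of any list passed the adjusted threshold between genotypes (limma, BH). Of 30 other meningeal fibroblast markers, 12 (40%) had r of at least 0.7 with Slc6a20a and 17 a positive slope at an unadjusted p under 0.05. The mean of those 30 had r = 0.93 with the mean of the 9. The means of other lists also varied with it, with r = 0.80 for astrocyte, 0.79 for ependymal, 0.69 for choroid plexus, 0.69 for pericyte and smooth muscle, 0.68 for border macrophage and 0.68 for endothelial markers, so the shared pattern over mice is no test of the cell type in the group's name. Between genotypes, Tbx18, a transcription factor of mural cells and fibroblasts, had the lowest fold change of that list. It went from 107.8 normalized counts in WT to 79.4 in HT and 80.2 in HM mice (log2 fold change -0.43, SE 0.16, and -0.41, SE 0.16, limma adjusted p = 0.768 and 0.670).

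Among 11 measured small leucine-rich proteoglycans, 4 had r of at least 0.7, the members Dcn, Ogn and Lum and the related Fmod (fibromodulin, r = 0.82). Of 13 genes of the IGF axis, Igf2 and Igfbp2 alone did so, and Igfbp5, the most abundant of the list, had r = 0.10. In HM mice 4 of 13 IGF axis genes were higher than in WT at an unadjusted p under 0.05 (6.99% of all genes in either direction), among them Igfbp5 (5296 to 5834 normalized counts, log2 fold change 0.14, SE 0.05, limma adjusted p = 0.650) and Igf2bp2 (23.3 to 45.7, log2 fold change 0.80, SE 0.32, limma adjusted p = 0.670), and 0 were lower.

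In the retinoid list, 2 of 17 genes had r of at least 0.7, Aldh1a2 and the retinol receptor Stra6 (named after its values were seen), and the most abundant gene, Aldh1a1, had r = 0.07. Of 15 transporters, Slc22a6 and Slc47a1 included, 5 did so, and the mean of that list had r = 0.90 with Slc6a20a. Of 18 collagens 3 did so. The collagens had 2 of 18 genes lower in HT and 4 of 18 lower in HM mice at an unadjusted p under 0.05, and 0 higher, where 6.42% and 6.99% of all genes passed in either direction. Col6a1, the most abundant, had a log2 fold change of -0.17 in HT mice (SE 0.05, limma adjusted p = 0.765) and r = -0.24 with Slc6a20a. Of 18 transcription factors of the meninges 3 reached r of 0.7, and the most abundant was Zic1 (r = 0.87).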

How the data were processed

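Whole brains of 12 male mice, 4 per genotype, were sequenced by the authors from poly-A RNA with a kit that does not mark the strand. The authors estimated transcript abundance from paired reads of 100 bases with Salmon 1.1.0 on GRCm38, summed it to genes with tximport and divided it by the size factors of DESeq2 1.30.1 (R 4.1.1 per the labels). The annotation release is not given in the sources used here. The deposited values are therefore a normalized count signal with decimals and not raw counts, and the reads behind them could not be recovered.

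From this signal, log2(normalized count + 1) was tested with limma 3.58.1 in R 4.3.3, its prior variance being allowed to trend with expression. Genes entered if they averaged 10 or more normalized counts in the mice of the fit. The BH threshold was 0.05 over all genes tested. Log2 fold changes on this scale understate the change of genes with low counts. Each pair of genotypes used its own 8 mice. The relation to Slc6a20a used 12 mice, with the 3 genotype means and the Slc6a20a log2 level, centred within genotypes, as terms. Exact permutation tests (Python 3.11.15, numpy 2.4.6, scipy 1.17.1) were two-sided. The limma fits were tested on simulated data. The labels do not say whether mice shared a litter, so p-values measure the spread between these mice.

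The 9 genes, the 18 gene lists and the tests were chosen with earlier results of these data known. The text names the 9 genes, Slc6a20a, the 10 genes most like each of the 2 patterns, the most abundant and the most changed genes of a list, and list genes past the threshold. Symbols and positions are those of GENCODE M21 on GRCm38, and promoter windows come from RefSeq. Alternatives were a pseudocount of 0.1, no filter, at least 10 in every mouse, all 12 mice in 1 fit, blocks for the replicate number or the first 3 digits of the animal number, quantile normalization, marker means as covariates and leaving out mice. The animal number was read from the column headings, and its meaning is not given in the labels. The endothelial covariate, the animal-number block for the relation, the test of unequal slopes and a prior without trend were chosen after seeing the data.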

Additional observations from a re-analysis of the deposited data

Results flagged for a closer look

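Ogn in HT replicate 1, at 254.852 normalized counts, stood apart from the other HT mice, which had 250.4, 251 and 251 normalized counts. Its gap to the next mouse was 0.867 of the range of the 4 HT mice, but that range is narrower than the range of Ogn in WT or HM mice. It was the 1 such value in 30 groups of 4 mice tested, where about 1 in 20 groups is marked by chance.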

How the results depend on the processing

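No member passed the adjusted threshold between genotypes under any alternative or with any mouse left out. The number of genes that passed was 0 without a trend in the variance prior (Slc6a20a no longer did) and 1 to 5 with each mouse left out for HT against WT (main 1; 5 without HT replicate 3). For HM against WT it was 1 with a replicate block, 1 without a trend and 2 to 3 with mice left out (main 2). For HM against HT it was 2 with no filter, 3 with the animal-number block and 1 to 7 with mice left out (main 1; 7 without HM replicate 2 or 3). Some differences changed sign. With the animal-number block this was so for Igfbp2 in HT mice (0.0031), for Dcn (0.022), Ogn (0.0018), Igf2 (0.069), Igfbp2 (0.086) and Aldh1a2 (0.079) in HM mice, and for Aldh1a2 in HM against HT mice (-0.36). That block, which for HM against HT rests on HM replicate 4 and HT replicates 1 and 2, also gave larger differences there for Slc22a6 (-0.41 from -0.18, unadjusted p = 0.0459), Ogn (-0.32 from -0.02), Lum (-0.33 from -0.01), Igf2 (-0.23 from -0.06), Foxc1 (0.24 from 0.04), Slc47a1 (-0.31 from -0.20) and Dcn (-0.13 from -0.08), none past the adjusted threshold (limma).

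With each mouse left out, the log2 fold change ran through 0 in HT mice for Dcn (-0.17 to 0.018), Igf2 (-0.17 to 0.0060), Aldh1a2 (-0.29 to 0.0059) and Slc22a6 (-0.067 to 0.12). In HM mice it did so for Igfbp2 (-0.18 to 0.011), Aldh1a2 (-0.24 to 0.057) and Slc47a1 (-0.10 to 0.086), and in HM against HT mice for Ogn (-0.11 to 0.079), Igfbp2 (-0.071 to 0.080), Aldh1a2 (-0.057 to 0.16) and Lum (-0.12 to 0.087). Lum kept its direction against WT in every fit, from -0.37 to -0.26 in HT and from -0.45 to -0.24 in HM mice with mice left out. With the animal-number block it was -0.37 in HT and -0.19 in HM mice.

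For the relation to Slc6a20a, 4 genes and 1 member (Igf2) passed. Under the replicate block, the choroid plexus, erythrocyte or endothelial covariate, WT and HT mice alone, the 2 farthest mice left out, the animal-number block or no trend, 0 genes and 0 members passed. With each mouse left out 0 to 6 genes and 0 members did. The slope of Foxc1 became -0.30 without the 2 farthest mice and ran from -0.12 (without WT replicate 2) to 0.65 with single mice left out, and the slopes of the other 8 members stayed positive in every fit. The causes were not tested. No pairing of the mice by replicate number was seen over all genes. Correlations of same-numbered mice ran from -0.066 to 0.087, and 0 of 12 were over 0.1, while those of other pairs ran from -0.10 to 0.12. Correlations over all genes could miss a pairing that affects few of them. Count models (edgeR, DESeq2, TMM) were not run because the values are not counts.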
